A study of Mus musculus with 30 samples.

Results

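The AP-1 genes of the FOS family (*Fos*, *Fosb*, *Fosl1* and *Fosl2*) and of the JUN family (*Jun*, *Junb* and *Jund*) were followed through tibial fracture repair in mice. These 7 genes were chosen by name as the complete FOS and JUN families, out of 55416 gene identifiers in the count table, and all 7 had counts in every library and were tested in every comparison. Bulk RNA-seq was made from 30 fracture calluses taken 3, 6, 10 and 14 days post-fracture (dpf), after a closed fracture of the left tibia of adult mice that was not stabilised. The study compared P-Apex1KO mice, in which *Apex1* was deleted in limb mesenchyme, with their WT littermates.

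P-Apex1KO mice were Prrx1-Cre;Apex1 C/C, homozygous for a conditional *Apex1* allele and carrying a Cre driven by the *Prrx1* limb bud enhancer. The conditional allele was made in embryonic stem cells and bred with C57Bl/6J mice. Blood, vascular and other callus cells that do not descend from limb mesenchyme kept *Apex1* in these mice. The WT group pooled 3 control genotypes. Some controls had no Cre and were Apex1 C/+ or else Apex1 C/C, and others were Prrx1-Cre;Apex1 C/+ with 1 conditional allele. At 3-dpf there were 4 WT and 4 P-Apex1KO libraries, at 6-dpf 5 and 3, at 10-dpf 4 and 3, and at 14-dpf 4 and 3. The labels give the sex of each mouse. The WT libraries included 2 females of 4 at 3-dpf, 3 of 5 at 6-dpf, 2 of 4 at 10-dpf and 1 of 4 at 14-dpf, against 1 P-Apex1KO female at each of 3-, 6- and 10-dpf and 3 of 3 at 14-dpf. Nothing in the labels says that the libraries of a group came from separate mice, and p-values measure the spread between these libraries only.

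AP-1 is a dimer of basic leucine zipper proteins that binds DNA at short palindromic sites. A JUN protein can pair with itself, with another JUN or with a FOS protein, while FOS proteins bind DNA only with a partner such as a JUN. *Fos*, *Fosb*, *Jun* and *Junb* are immediate early genes, transcribed within minutes of a growth signal, a mechanical load or wounding, and also when tissue is taken apart. In bone, *Fos* is required for osteoclast formation, *Fosl1* and *Fosl2* act in osteoblasts and chondrocytes, and AP-1 sites lie in promoters of matrix metalloproteinase genes. APEX1, also called Ref-1, is a DNA repair endonuclease that also reduces a cysteine in the DNA-binding region of FOS and JUN proteins, which favours binding. That action is on the protein and is not measured by RNA-seq.

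The windows of coding sequence around this cysteine are shown because all 7 genes carry it, at the position known from *Fos* and *Jun* as the one that APEX1 keeps reduced. Each window has 39 bases, is written 5′ to 3′ on the coding strand of GRCm39, and has the cysteine codon in capitals.

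Fos: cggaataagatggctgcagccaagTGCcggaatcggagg

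Fosb: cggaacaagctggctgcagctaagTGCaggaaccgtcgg

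Fosl1: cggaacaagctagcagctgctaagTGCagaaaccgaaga

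Fosl2: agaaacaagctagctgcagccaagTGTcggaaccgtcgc

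Jun: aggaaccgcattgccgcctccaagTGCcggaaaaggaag

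Junb: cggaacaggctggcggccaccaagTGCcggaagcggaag

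Jund: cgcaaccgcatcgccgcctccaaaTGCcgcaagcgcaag

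The codon was TGC in 6 genes and TGT in *Fosl2*. It encoded residue 154 of the *Fos* product, 172 of *Fosb*, 122 of *Fosl1*, 141 of *Fosl2*, 272 of *Jun*, 282 of *Junb* and 279 of *Jund*. The windows lay in coding exons at chr12:85522408-85522446 on the plus strand for *Fos*, chr7:19040511-19040549 on the minus strand for *Fosb*, chr19:5504483-5504521 on the plus strand for *Fosl1* and chr5:32307807-32307845 on the plus strand for *Fosl2*. The JUN windows lay at chr4:94938681-94938719 on the minus strand for *Jun*, chr8:85704201-85704239 on the minus strand for *Junb* and chr8:71152517-71152555 on the plus strand for *Jund*. Each FOS gene had 4 coding exons and each JUN gene 1. Across the 65 residues of the basic region and zipper, translated products were 75.4 to 83.1% identical within the FOS genes, 78.5 to 87.7% within the JUN genes and 26.2 to 33.8% between the families.

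In the 500 bases before each start, a CArG box, the site bound by serum response factor, was found for *Fos* and *Fosb*, and a cAMP response element (TGACGTCA) for *Jund*. They are shown with the motif in capitals and 10 bases on each side, on the strand of the gene.

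Fos CArG box: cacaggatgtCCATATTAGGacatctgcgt

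Fosb CArG box: tggccgagctCCTTATATGGctaattgcgt

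Jund cAMP response element: cccacccccaTGACGTCAacccacaatg

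These matches lay at chr12:85520345-85520374, chr7:19044223-19044252 and chr8:71151375-71151402 of GRCm39, with the motif beginning at -303, -266 and -214 bases from the start. On both strands, a CArG box was found in 2.76% and TGACGTCA in 1.96% of 21757 promoters of the same length. The AP-1 site TGACTCA, searched on both strands, was found in none of the 7 member promoters and in 7.57% of all promoters, and in 9 of 27 promoters of the AP-1 target genes listed further on (33.3%). Genes can enter a list of AP-1 targets because of this site, so the 33.3% was not taken as support for the list. A match is a description of letters and not of binding.

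*Apex1* was read first, as a check of the labels. Its level is given in CPM, the count of a gene relative to the size of its library after TMM scaling across the 30 libraries. At 6-dpf the 3 P-Apex1KO libraries held 15.1, 15.2 and 15.9 CPM against 20.7 to 28.9 in WT, and the log2 difference was -0.67 ± 0.11 (SE; edgeR, adjusted p = 0.0071). At 10-dpf P-Apex1KO libraries held 14.0 to 16.8 CPM and WT libraries 17.0 to 27.5, and the difference was -0.65 ± 0.13 (adjusted p = 0.0278). The 10-dpf call was lost without the sex term, and without WT replicate 1 or P-Apex1KO replicate 1, 2 or 3. At 14-dpf P-Apex1KO libraries held 14.2 to 18.6 CPM and WT libraries 19.8 to 27.2 without overlap, and the difference with sex in the model was -0.29 ± 0.19 (adjusted p = 0.367). At 3-dpf the groups overlapped, from 18.4 to 34.6 CPM in the libraries labelled P-Apex1KO and from 26.5 to 33.1 in WT (-0.15 ± 0.19, adjusted p = 0.927). Of the libraries labelled P-Apex1KO, replicate 1 (18.4 CPM) lay below all WT libraries, and replicates 2 and 3 (29.1 and 27.6) lay inside the WT range. The library labelled P-Apex1KO replicate 4 at 3-dpf lay above every WT library, so the genotype differences at 3-dpf and the called changes from 3- to 6-dpf in P-Apex1KO are also given without it. Of all genes, 0 were called at 3-dpf with it and 10 without it. Library totals ran from 18334389 to 43111491 counts, and *Xist* and *Ddx3y* matched the labelled sex in 30 of 30 libraries. Sample names follow one scheme at 3- and 6-dpf and another at 10- and 14-dpf, so tests between time points were kept within each scheme.

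Markers of several callus cell types differed between genotypes from 6-dpf on, and their part in the results below was not tested. In bulk tissue, fewer cells of a type and less RNA per cell cannot be told apart. At 6-dpf all 8 cartilage markers were lower in P-Apex1KO (summed level 1993 to 3798 CPM against 28409 to 51546 in WT), as were 7 of 8 osteoblast markers (17727 to 27849 against 38286 to 53687), while 8 of 8 skeletal muscle markers (10121 to 21089 against 4615 to 8379) and 6 of 8 macrophage markers (1255 to 1452 against 685 to 907) were higher. At 10-dpf 6 of 8 osteoblast markers were lower (18081 to 27431 against 42001 to 60254 CPM) and 5 of 8 macrophage markers higher (821 to 949 against 611 to 798). Adipocyte markers were higher for 6 of 8 at 10-dpf (135 to 239 against 62.0 to 86.9). At 14-dpf 5 of 8 osteoblast markers were lower (17668 to 19146 against 71062 to 96941 CPM), and 6 of 8 neutrophil markers (1425 to 1989 against 730 to 1083) and 6 of 7 tested erythroid markers (2071 to 2428 against 887 to 983) were higher. Cartilage markers had turned by then, with 7 of 8 higher and 1 lower, while the summed levels overlapped (3793 to 4378 against 2360 to 6424). Macrophage markers split into 6 higher and 2 lower. With sex in the model, these 14-dpf counts set P-Apex1KO females against 1 WT female. The shares of all genes called are given with the gene lists below. No marker of any list was called at 3-dpf, and no marker was at 0 in all libraries. In WT the cartilage markers summed to 346 to 402 CPM at 3-dpf, before the rise at 6-dpf given above, and the osteoblast markers to 14479 to 17488.

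Levels were compared between genes per length, as CPM per kb of exon. In WT callus at 3-dpf *Fos* led with 65.6 ± 19.7 CPM per kb (SD, n = 4), followed by *Junb* with 62.2 ± 12.1, and the libraries of these 2 genes overlapped. *Jund* came next at 42.5 ± 3.64, below every *Junb* library, and *Fosl2* (32.8 ± 4.99) and *Jun* (29.7 ± 2.45) overlapped. *Fosb* (3.75 ± 1.63) and *Fosl1* (3.46 ± 1.24) were lowest and overlapped.

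*Jund* had the highest mean of the family per kb in every group from 6-dpf on. In WT it stood at 59.5 ± 12.3 CPM per kb at 6-dpf (n = 5), 41.3 ± 8.52 at 10-dpf (n = 4) and 49.4 ± 4.31 at 14-dpf (n = 4). In P-Apex1KO it stood at 60.0 ± 9.43, 41.7 ± 8.74 and 40.1 ± 10.9 (n = 3 each). Its libraries overlapped those of the second gene, *Junb*, in WT at 6-dpf and in P-Apex1KO at 10-dpf, and did not overlap those of the second gene in the other 4 groups. The second gene was *Fosl2* in WT at 10-dpf (26.0 ± 1.88) and in both genotypes at 14-dpf (39.7 ± 2.24 in WT and 23.0 ± 4.22 in P-Apex1KO). *Fosb* and *Fosl1* were the lowest 2 genes in every group, and from 10-dpf on *Fosl1* lay below *Fosb* without overlap, at 0.240 to 0.667 CPM per kb.

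**Figure D1:**
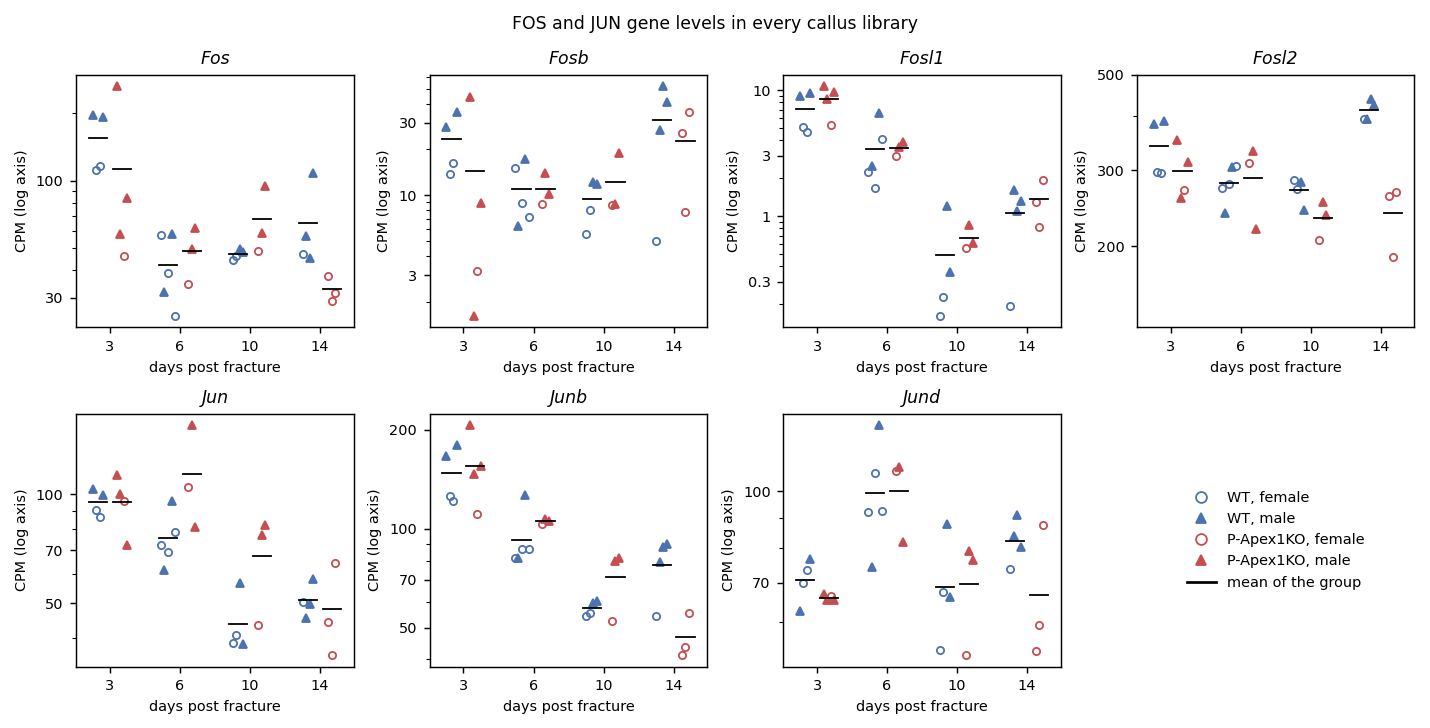
Level of each FOS and JUN gene in every library (CPM, log axis), with days post-fracture on the horizontal axis, WT in blue and P-Apex1KO in red, circles for females, triangles for males and a line at each group mean. *Fos* and *Junb* means are highest at 3-dpf, *Fosl2* in WT lies at 394 to 440 CPM at 14-dpf above all 10-dpf libraries, and *Fosl1* stays under 2 CPM from 10-dpf on.

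The summed level of the 7 genes was 240 ± 41.4 CPM per kb in WT at 3-dpf and 170, 127 and 171 at 6-, 10- and 14-dpf. In libraries labelled P-Apex1KO it was 218 at 3-dpf and then 192, 146 and 116. FOS genes made up 43.5 ± 4.10% of this sum in WT at 3-dpf and 28.4 ± 2.38% at 6-dpf, when *Jund* alone held 34.8 ± 2.24%. They made up 37.9% at 10-dpf and 42.3 ± 3.54% at 14-dpf in WT, against 36.6% and 35.8 ± 5.39% in P-Apex1KO. These shares are descriptions and were not tested.

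**Figure D2:**
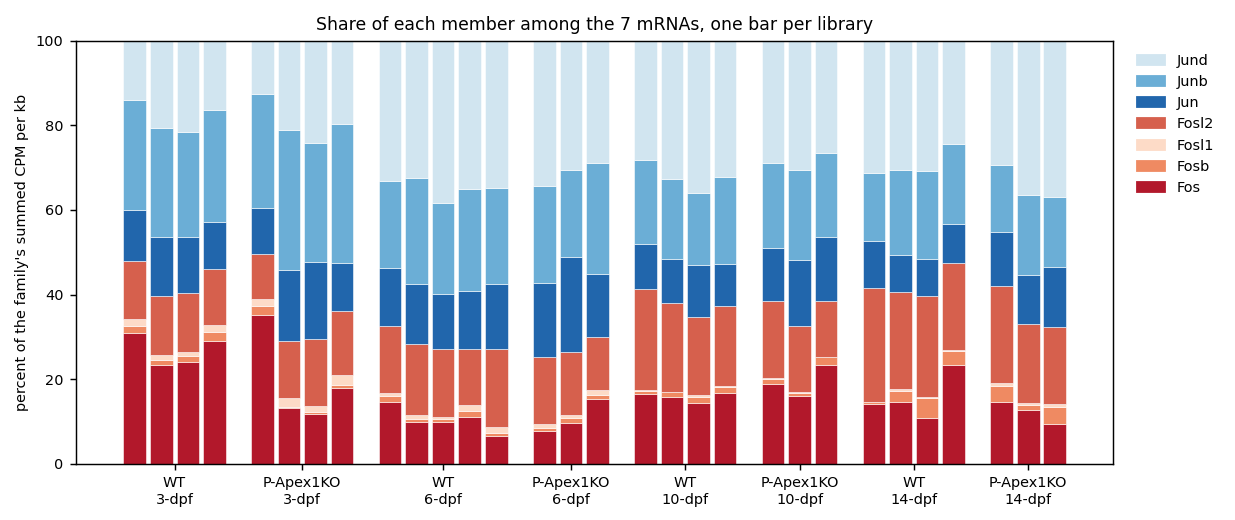
Share of each member in the summed level of the 7 genes (percent of summed CPM per kb, vertical axis), a bar for each library, set out by group along the horizontal axis, FOS genes in reds and JUN genes in blues. The mean *Fos* share in WT falls from 26.9% at 3-dpf to 10.4% at 6-dpf, when *Jund* takes 34.8%.

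Few members were called between genotypes. With 7 genes, these counts do not set the members apart from the shares of all genes given beside them. The single call, *Fosl1* at 14-dpf, rests on 1 WT library and was lost in 5 of 6 fits that left out 1 library. No member passed the edgeR test at 3-dpf (0 of 7, with 1 at an unadjusted p under 0.05 and 0 by DESeq2, and 0.0% of all genes tested called), and none passed without replicate 4, where the log2 differences were -0.66 for *Fos*, -1.07 for *Fosb*, 0.09 for *Fosl1*, -0.26 for *Fosl2*, 0.08 for *Jun*, -0.04 for *Junb* and -0.09 for *Jund*. At 6-dpf 0 of 7 passed (1 unadjusted, 0 by DESeq2) while 10.9% of all genes were called, and at 10-dpf 0 of 7 (3 unadjusted, 1 by DESeq2) against 6.46% of all genes. At 14-dpf 1 of 7 passed (3 unadjusted, 2 by DESeq2) against 11.3% of all genes. The median log2 difference of the members was -0.09, 0.09, 0.26 and -0.12 at 3-, 6-, 10- and 14-dpf, beside medians of 0.00, 0.01, 0.00 and 0.04 over all genes. WT and P-Apex1KO libraries did not overlap in CPM for 0 of 7 members at 3-dpf (3.66% of all genes), 0 of 7 at 6-dpf (20.6%), 0 of 7 at 10-dpf (19.3%) and 2 of 7, *Fos* and *Fosl2*, at 14-dpf (42.0%).

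**Figure D3:**
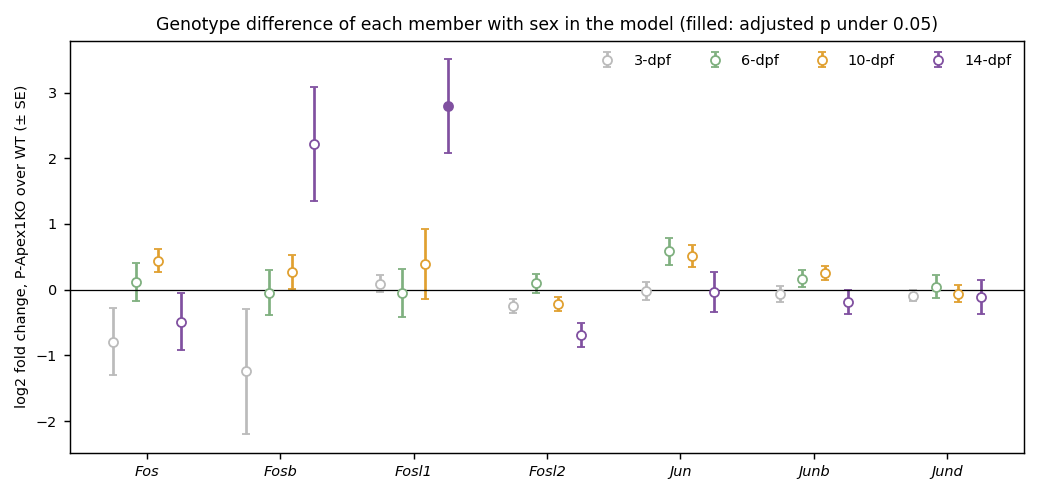
Log2 difference P-Apex1KO minus WT (vertical axis) of each member (horizontal axis) at 3-, 6-, 10- and 14-dpf, as the fitted value with its standard error, filled where adjusted p is under 0.05. *Fosl1* at 14-dpf (2.79) is the only called value, and *Fosl2* at 14-dpf (-0.69) lies just outside the threshold.

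More members changed between time points, *Fos*, *Fosl1*, *Junb* and *Jund* early and *Fosl2* late. From 3- to 6-dpf 4 of 7 members changed in WT, where 30.5% of all genes were called, and 3 of 7 changed in P-Apex1KO, where 14.0% were called. From 10- to 14-dpf 1 of 7 changed in WT, against 11.1% of all genes, and 0 of 7 in P-Apex1KO (3 at an unadjusted p under 0.05, 0 by DESeq2), against 0.259%. The difference in genotype effect between 6- and 3-dpf was called for 0 of 7 members (1 unadjusted, 0 by DESeq2) and for 1.3% of all genes. Between 14- and 10-dpf it was called for 0 of 7 (3 unadjusted, 0 by DESeq2) and for 0.436% of all genes. The WT and P-Apex1KO changes over time share no libraries, but a genotype difference and a change over time at the same day do.

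*Fos*, the partner of JUN proteins for which the family is named, fell sharply after 3-dpf in WT. WT replicates 1 to 4 held 196, 112, 117 and 194 CPM at 3-dpf, and WT replicates 1 to 5 held 57.4, 32.0, 38.7, 57.9 and 25.0 at 6-dpf. Every 3-dpf library lay above every 6-dpf library, and the log2 change was -1.77 ± 0.42 (edgeR, adjusted p = 0.00575), or 0.294 of the 3-dpf level. The libraries labelled P-Apex1KO at 3-dpf held 265, 58.1, 46.1 and 83.7 CPM, 1 above and 3 below all WT libraries. The genotype difference at 3-dpf was -0.79 ± 0.51 (adjusted p = 0.873). Without the library labelled P-Apex1KO replicate 1 it was -1.40 with adjusted p = 0.0244, so that the 3-dpf reading of *Fos* rests on that library. Replicate 1 was also the only library labelled P-Apex1KO at 3-dpf with *Apex1* below all WT libraries. The libraries labelled P-Apex1KO left in that fit had *Apex1* within or above the WT range. Without replicate 4 the *Fos* difference was -0.66 and not called.

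At 6-dpf the P-Apex1KO libraries held 34.7, 49.4 and 61.4 CPM of *Fos*, within and just above the WT range. The change from 3-dpf in P-Apex1KO was -1.11 ± 0.48 (adjusted p = 0.15). At 10-dpf WT libraries held 44.5, 46.4, 49.8 and 48.3 CPM and P-Apex1KO libraries 48.6, 58.5 and 95.0, with overlap at the lower end (0.44 ± 0.18, adjusted p = 0.186). At 14-dpf WT libraries held 47.0, 57.0, 45.4 and 109 CPM and P-Apex1KO libraries 37.7, 29.1 and 31.7. All P-Apex1KO libraries were below all WT libraries, and the difference with sex in the model was -0.49 ± 0.43 (adjusted p = 0.507). Without the sex term it was -0.94 (adjusted p = 0.0545).

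*Fosb*, which encodes a FOS protein and, by splicing, the stable ΔFosB form, varied widely between libraries of a group. WT libraries held 28.0, 13.8, 16.4 and 35.5 CPM at 3-dpf and the libraries labelled P-Apex1KO 44.4, 1.62, 3.17 and 8.87. The replicate that was highest for *Fos* was highest here too, and the other 3 lay below all WT libraries (-1.25 ± 0.95, adjusted p = 0.887). At 14-dpf WT libraries held 5.01, 27.0, 52.2 and 41.1 CPM, with the female lowest, and P-Apex1KO libraries 25.5, 7.75 and 35.4. The groups overlapped, and the difference was 2.22 ± 0.86 with sex in the model (adjusted p = 0.153) and -0.42 without it (adjusted p = 0.711). At 6- and 10-dpf all libraries lay between 5.61 and 19.0 CPM, and no change over time was called.

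*Fosl1*, which encodes FRA-1, fell early in both genotypes. WT libraries held 8.94, 5.05, 4.67 and 9.46 CPM at 3-dpf and 2.22, 2.51, 1.67, 6.54 and 4.10 at 6-dpf, with replicate 4 at 6-dpf inside the 3-dpf range. The libraries labelled P-Apex1KO held 10.8, 8.49, 5.33 and 9.68 CPM at 3-dpf and 3.01, 3.55 and 3.88 at 6-dpf, without overlap. The log2 change was -0.997 ± 0.258 in WT (adjusted p = 0.00819) and -1.19 ± 0.30 in P-Apex1KO (adjusted p = 0.0164), and -1.18 in P-Apex1KO without replicate 4 of 3-dpf (adjusted p = 0.0286). The P-Apex1KO call was lost without replicate 2 or 3 of 6-dpf (largest adjusted p = 0.0989).

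*Fosl1* was also the single member called between genotypes, at 14-dpf, at a very low level. WT libraries held 0.195, 1.62, 1.09 and 1.31 CPM (4 to 35 counts) and P-Apex1KO libraries 1.30, 0.818 and 1.95 CPM (17 to 41 counts). The groups overlapped, and only the WT female, replicate 1, stood apart at the low end. With sex in the model, *Fosl1* was higher in P-Apex1KO by 2.79 ± 0.71 on the log2 scale (6.92-fold, adjusted p = 0.0443). All P-Apex1KO mice at 14-dpf were female, so this value compares them with that WT female, and without the sex term the difference was 0.39 (adjusted p = 0.615). The call was also lost with all 30 libraries in one model (1.16, adjusted p = 0.0552) and in 5 of 6 fits that left out 1 library, namely WT replicate 2, 3 or 4 or P-Apex1KO replicate 1 or 3 (largest adjusted p = 0.0861). At 10-dpf WT libraries held 0.162 to 1.20 CPM and P-Apex1KO libraries 0.556 to 0.845, and at that depth no difference was detectable (0.39 ± 0.53).

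*Fosl2*, which encodes FRA-2, was the member with the clearest separation of genotypes at 14-dpf. WT libraries held 285, 271, 283 and 242 CPM at 10-dpf and 394, 394, 440 and 426 at 14-dpf. Every 14-dpf library lay above every 10-dpf library, and the change was 0.58 ± 0.11 (1.50-fold, adjusted p = 0.00551). P-Apex1KO libraries held 207, 253 and 237 CPM at 10-dpf and 261, 189 and 268 at 14-dpf, with overlap, and the change was 0.08.

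At 14-dpf all P-Apex1KO libraries thus lay below all WT libraries for *Fosl2*. Of all genes, 42.0% likewise had no overlap between genotypes at 14-dpf. All P-Apex1KO mice at 14-dpf were female, so with sex in the model *Fosl2* was compared with the WT female, replicate 1. The genotype difference was -0.69 ± 0.18, or 0.619 of the WT level, with an adjusted p of 0.0501 that missed the threshold. It passed with DESeq2 (-0.69, adjusted p = 0.0182), without the sex term (-0.75, adjusted p = 0.00211) and with all 30 libraries in one model (-0.73, adjusted p = 0.000786). At 14-dpf, 6849 genes in all were called without the sex term and 6188 with all 30 libraries in one model, in place of 2289. The *Fosl2* difference missed with DESeq2 size factors (adjusted p = 0.0535), with at least 10 counts in every sample (-0.66, adjusted p = 0.0537) and with library size alone (-0.43, adjusted p = 0.136). Leaving out any 1 P-Apex1KO library made it pass, with adjusted p = 0.0473, 0.00674 and 0.0359 without replicates 1, 2 and 3. Leaving out WT replicate 2, 3 or 4 did not (largest adjusted p = 0.104). The test of the difference between 14- and 10-dpf gave -0.50 ± 0.19 (adjusted p = 0.29). At 3-dpf WT libraries held 295 to 389 CPM and the libraries labelled P-Apex1KO 259 to 352 (-0.26 ± 0.11, adjusted p = 0.801), and at 6-dpf the difference was 0.09 ± 0.15 (adjusted p = 0.749).

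*Jun*, which encodes the strongest activator of the JUN proteins, had higher means in P-Apex1KO at 6- and 10-dpf that did not pass the test. WT libraries held 72.1, 61.7, 69.3, 95.8 and 78.3 CPM at 6-dpf and P-Apex1KO libraries 105, 155 and 81.1. The third P-Apex1KO library lay inside the WT range, and the difference was 0.58 ± 0.21 (1.50-fold, adjusted p = 0.106). Without that library it was called (adjusted p = 0.0239). At 10-dpf WT libraries held 38.8, 40.9, 56.7 and 38.7 CPM and P-Apex1KO libraries 43.4, 77.1 and 82.1. The groups overlapped again, and the difference was 0.51 ± 0.17 (adjusted p = 0.113). *Jun* lay at 72.3 to 113 CPM in all 3-dpf libraries and at 35.9 to 64.3 in all 14-dpf libraries, with differences of -0.02 and -0.04.

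*Junb*, a JUN protein that can also restrain *Jun* activity, fell early in both genotypes. WT libraries held 166, 126, 122 and 179 CPM at 3-dpf and 81.2, 81.5, 86.5, 127 and 86.9 at 6-dpf, and only replicate 4 at 6-dpf reached the 3-dpf range. The libraries labelled P-Apex1KO held 206, 147, 111 and 155 CPM at 3-dpf and 103.6, 106.8 and 105.4 at 6-dpf, without overlap. The change was -0.66 ± 0.13 in WT (adjusted p = 0.00101) and -0.49 ± 0.15 in P-Apex1KO (adjusted p = 0.0357), and -0.52 in P-Apex1KO without replicate 4 of 3-dpf (adjusted p = 0.0464). The P-Apex1KO call was lost without the sex term (-0.55, adjusted p = 0.0737) and in 4 fits that left out 1 library, namely P-Apex1KO replicate 1 of 3-dpf, WT replicate 3 of 6-dpf, or P-Apex1KO replicate 2 or 3 of 6-dpf (largest adjusted p = 0.166).

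At 14-dpf WT libraries held 54.3, 79.4, 87.7 and 89.6 CPM of *Junb*, with the female lowest, and P-Apex1KO libraries 41.3, 43.6 and 55.4. The highest P-Apex1KO library lay just above the WT female. The genotype difference was -0.19 ± 0.18 with sex in the model (adjusted p = 0.536) and -0.69 without it (adjusted p = 0.022). At 10-dpf P-Apex1KO libraries held 52.5, 79.6 and 81.5 CPM against 54.1 to 60.3 in WT (0.25 ± 0.10, adjusted p = 0.184). The test of the difference between these time points gave -0.60 ± 0.21 (adjusted p = 0.238).

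*Jund*, the JUN gene usually transcribed without a stimulus, rose from 3- to 6-dpf in both genotypes. WT libraries held 62.7, 69.9, 73.7 and 76.8 CPM at 3-dpf and 92.1, 74.3, 107, 129 and 92.7 at 6-dpf, with overlap of 1 library. The libraries labelled P-Apex1KO held 65.4 to 67.03 CPM at 3-dpf and 108, 110 and 81.9 at 6-dpf, without overlap. The change was 0.45 ± 0.13 in WT (adjusted p = 0.0144) and 0.60 ± 0.14 in P-Apex1KO (adjusted p = 0.012), and 0.60 in P-Apex1KO without replicate 4 of 3-dpf (adjusted p = 0.0249). The P-Apex1KO call was lost without replicate 1 or 2 of 6-dpf (largest adjusted p = 0.0817). Scaled by library size alone the WT rise was 0.20 (adjusted p = 0.175). Between genotypes the groups overlapped at every time point, and the difference ran from -0.12 at 14-dpf to 0.05 at 6-dpf.

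Sex, the covariate of every fit, moved with 2 members. Over all 30 libraries and with the 8 groups in the model, *Junb* was higher in males by 0.38 ± 0.08 on the log2 scale (adjusted p = 0.0128) and *Fosl1* by 0.94 ± 0.21 (adjusted p = 0.0362), 2 of 7 members where 0.635% of all genes were called. For each of these genes the male mean was above the female mean in 7 of the 7 groups with both sexes, and in 6 of them every male lay above every female. *Fos* (0.58 ± 0.22, adjusted p = 0.226) and *Fosb* (1.05 ± 0.40, adjusted p = 0.229) were also higher in the male mean in 7 of 7 groups, and missed the threshold. Several of these groups held a single female, where full separation of the sexes is easier to reach. The share of all genes with such group counts was not taken. The group counts are therefore descriptions and do not set these genes apart from other genes. *Jun* (0.21), *Jund* (0.12) and *Fosl2* (0.08) had values closer to 0. The median of the 7 members was 0.38, beside 0.00 over all genes.

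Within parts of the series the sex difference of these 2 genes had the same sign and passed in none. Within the 3- and 6-dpf libraries it was 0.36 for *Junb* (adjusted p = 0.331) and 0.75 for *Fosl1* (adjusted p = 0.303), and within the 10- and 14-dpf libraries it was 0.43 (adjusted p = 0.105) and 1.64 (adjusted p = 0.132). Without WT replicate 1 of 14-dpf, *Junb* was still called and *Fosl1* was not (0.82, adjusted p = 0.0672).

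The members varied together between libraries of the same group. Over 30 libraries, as log2 CPM deviations from the group means, all 21 pairs of members had a positive Pearson r, and 17 pairs passed a permutation test adjusted over the 21 pairs by Pearson r. By Spearman rho 17 passed too, 16 of them shared. The share of pairs of other genes that would pass was not taken, so these counts do not set the family apart from other genes. *Fos* and *Fosb* gave r = 0.75 and rho = 0.74 (adjusted permutation p = 0.003045), and r = 0.63 without the 2 libraries farthest from the median. Within the 3- and 6-dpf libraries r was 0.91, and within the 10- and 14-dpf libraries 0.47. *Jun* and *Jund* gave 0.73, *Fosl1* and *Junb* 0.71, and *Fosl2* and *Jun* 0.66. The 4 pairs that did not pass by Pearson r were *Fos* with *Fosl1*, *Fosl2*, *Jun* and *Jund*, the last with r = 0.12 (adjusted permutation p = 0.428). By rho *Fos* with *Fosl1* passed (adjusted permutation p = 0.04226) and *Fosl2* with *Jund* did not (adjusted permutation p = 0.05215). With sex removed as well as group, 8 of 21 pairs passed by Pearson r, *Fos* and *Fosb* among them (r = 0.68).

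**Figure D4:**
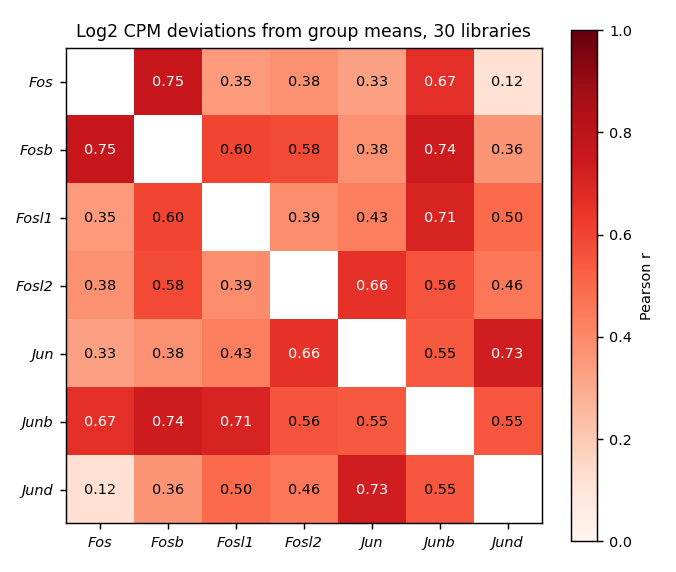
Pearson r of log2 CPM deviations from the group means for the 21 pairs of members over 30 libraries, members on both axes and r as colour and number. All values are positive, from 0.12 for *Fos* with *Jund* to 0.75 for *Fos* with *Fosb*.

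Among 15892 genes, those most like each member in these deviations were picked by the highest Pearson r over the 30 libraries, as a description. They were *Rgs1* (0.82), *Gm37352* (0.81) and *Zfp36* (0.80) for *Fos*, and *Egr1* (0.84), *Ier3* (0.82) and *Il6* (0.82) for *Fosb*. For *Fosl1* they were *Fstl3* (0.86) and *Nfatc2* (0.86), and for *Fosl2* *Klf4* (0.89), *Tmtc3* (0.87) and *Cttnbp2nl* (0.87). The JUN genes gave *Tnfaip1* (0.93), *Vat1* (0.93) and *C1qtnf6* (0.92) for *Jun*, *Ddit4* (0.86), *Slc35e4* (0.83) and *Apold1* (0.82) for *Junb*, and *Csrp1* (0.87), *Cavin1* (0.81) and *Crispld2* (0.81) for *Jund*. Of these, *Zfp36*, *Egr1*, *Ier3* and *Klf4* are themselves immediate early genes.

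Genes that work with AP-1 were read as lists, by how many passed the edgeR test between genotypes. At 6-dpf 5.31% of all genes were called higher and 5.61% lower in P-Apex1KO, at 10-dpf 3.01% higher and 3.44% lower, and at 14-dpf 4.28% higher and 7.04% lower. With sex in the model, every 14-dpf value sets 3 P-Apex1KO females against 1 WT female, so 14-dpf counts are also given without the sex term, where 6849 genes were called in all in place of 2289. Calls of 1 or 2 genes in a list were often lost when 1 library was left out. Among 12 other basic leucine zipper genes that can pair with FOS or JUN proteins, 1 was higher at 6-dpf (*Batf2*, 1.72 ± 0.45, adjusted p = 0.0397). *Jdp2*, which encodes a JUN partner that represses AP-1 and acts in osteoclasts, had a log2 difference of -0.78 ± 0.17 at 10-dpf (adjusted p = 0.0359) and -1.56 ± 0.16 at 14-dpf (adjusted p = 0.00143). *Atf3*, a stress-induced JUN partner, was higher at 14-dpf (1.20 ± 0.27, adjusted p = 0.029), as was *Mafk* (0.70). At 14-dpf 2 of the 12 were higher and 1 lower, and without the sex term 2 and 2. The *Batf2* call was lost without WT replicate 2, 3 or 4 or P-Apex1KO replicate 2 or 3, and the number higher at 14-dpf was 1 without WT replicate 2 and 0 without WT replicate 3 or 4.

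Of 15 upstream kinases and factors, such as the JNK and ERK genes and serum response factor, none was called at 3-, 6- or 10-dpf and 1 at 14-dpf, *Elk3*, a partner of serum response factor (-0.67 ± 0.15, adjusted p = 0.025). Without the sex term 1 was higher and 4 were lower at 14-dpf, and in the model with sex 0 were lower without WT replicate 2, 3 or 4 and 3 without P-Apex1KO replicate 1 or 2. Of 8 redox genes around thioredoxin, *Txnip*, the thioredoxin inhibitor, was higher at 6-dpf (0.58) and *Apex1* itself lower. At 10-dpf *Apex1* was the only one called, and at 3- and 14-dpf none of the 8 was, against 1 higher and 2 lower at 14-dpf without the sex term.

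Immediate early genes other than the members were more often higher than lower at 6-dpf. Of 37 tested, 8 were higher and 0 lower, with a median log2 difference of 0.24 against 0.01 over all genes, and the summed levels overlapped (1642 to 2177 CPM in P-Apex1KO and 1757 to 2241 in WT). The number higher was 2 without P-Apex1KO replicate 1, 4 without WT replicate 2, up to 9 without another library, and 5 to 21 under the other settings. The largest were *Sik1*, a salt-inducible kinase (1.12 ± 0.15, adjusted p = 0.00254), *Cebpb*, a C/EBP transcription factor (1.00 ± 0.17, adjusted p = 0.00804), *Dusp2*, a MAP kinase phosphatase (1.00), and *Btg2*, an antiproliferative gene (0.69). At 10-dpf *Btg2* (0.89) and *Dusp1* (0.78) were higher, and at 14-dpf *Btg2* (1.17) was higher and *Nfkbia*, the NF-κB inhibitor, lower (-0.71), while without the sex term 2 were higher and 7 lower at 14-dpf. At 10-dpf none was higher without WT replicate 1 or P-Apex1KO replicate 1. *Egr1*, the gene closest to *Fosb*, was not called at any time point (-0.96, -0.07, 0.04 and -0.73).

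Target genes of AP-1 moved in both directions. Of 25 tested at 6-dpf, 6 were higher and 5 lower, with *Mmp3*, a stromelysin, at 1.88 ± 0.31 (adjusted p = 0.00711), the chemokine *Ccl2* at 1.38, the cytokine *Il6* at 1.26 and the bone matrix gene *Ibsp* at -1.48. At 10-dpf 4 were lower and 0 higher, *Mmp10* (-3.17 ± 0.42, at a P-Apex1KO mean of 0.332 CPM), *Mmp9* (-2.05 ± 0.31), the collagenase *Mmp13* (-1.24 ± 0.23) and *Vegfa* (-0.80). At 14-dpf 4 were higher and 4 lower, with *Mmp9* (-2.60 ± 0.31, adjusted p = 0.00308), *Sparc* (-1.44) and *Lif* (-1.26) lower and *Mgp*, an inhibitor of calcification, higher (1.04). *Mmp13* was not called at 14-dpf (-0.58). Without the sex term 4 were higher and 6 lower at 14-dpf. At 6-dpf the number higher was 1 without P-Apex1KO replicate 1 and 3 without P-Apex1KO replicate 2 or WT replicate 2 or 3, and the number lower was 3 without P-Apex1KO replicate 1 or WT replicate 2 or 4. At 10-dpf the number lower was 1 without P-Apex1KO replicate 1 and 2 without WT replicate 1 or 2. At 14-dpf the number higher was 1 without WT replicate 2 or 4, 2 without WT replicate 3 and 8 without P-Apex1KO replicate 2.

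Osteoclast genes that lie downstream of *Fos* were lower in P-Apex1KO than in WT at the later time points. Of 11 tested, 6 were lower at 10-dpf (median -1.64) and 11 at 14-dpf (median -2.40), where the summed levels were 2072 to 3658 CPM in P-Apex1KO and 13080 to 14804 in WT. *Acp5*, tartrate-resistant acid phosphatase, was at -1.64 and then -2.68, *Ctsk*, cathepsin K, at -1.50 and then -2.40, and the fusion genes *Dcstamp* and *Ocstamp* at -2.41 and -2.52 at 14-dpf. *Oscar*, an osteoclast receptor, was at -2.79 ± 0.25 (adjusted p = 0.00111), and *Nfatc1*, the osteoclast transcription factor, at -0.88 (adjusted p = 0.0143). In whole callus *Fos* stood at 0.44 and -0.49 at the same time points, not called, which does not give its level in osteoclasts. Osteoclasts had no marker list of their own. Fewer osteoclasts and less RNA of these genes per osteoclast cannot be told apart here. At 10-dpf 0 of 11 were called lower without P-Apex1KO replicate 1, 2 without P-Apex1KO replicate 3, 1 without WT replicate 1 or 2, and 10 without WT replicate 3. At 14-dpf leaving out any 1 library other than WT replicate 1 left 9 to 11 lower, and all 11 were lower without the sex term. At 6-dpf the 1 called gene was *Tnfrsf11a*, which encodes the receptor RANK (0.50, adjusted p = 0.0346), and at 3-dpf none of 10 was called. *Mmp9* stands in both the target and the osteoclast list.

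**Figure D5:**
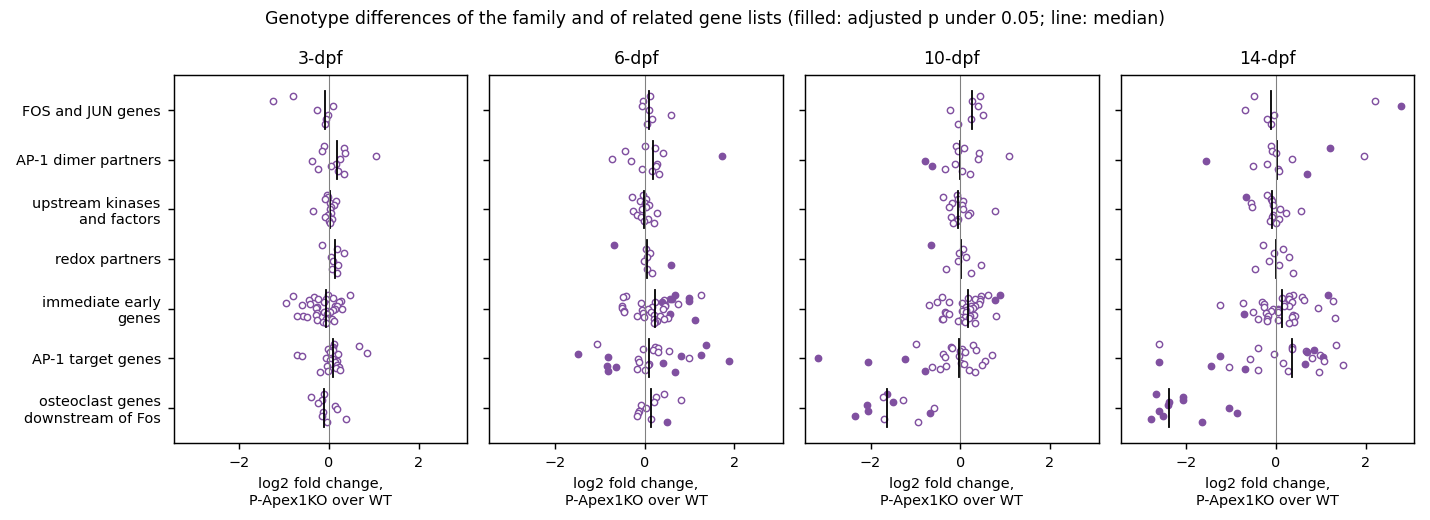
Log2 difference P-Apex1KO minus WT (horizontal axis) of the FOS and JUN genes and of 6 related lists (rows) in a panel for each time point, a point for each gene, filled where called, and a line at the median. The osteoclast list has medians of -1.64 at 10-dpf and -2.40 at 14-dpf, and every other median lies between -0.12 and 0.35.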

How the data were processed

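Total RNA was extracted from ground callus with TRIzol and columns, and libraries were made with the Illumina Stranded Total RNA Ligation kit with Ribo-Zero Plus. Per the methods and the submitters' processing notes, the authors aligned reads with STAR 2.7.0d to mm39. Reads with a single mapping were counted for each gene by featureCounts in its reverse-strand mode against Ensembl annotation. The deposited values are raw counts per gene and library, which sum to 18334389 to 43111491.

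Counts were tested in edgeR 4.0.16 (R 4.3.3) with filterByExpr, TMM scaling and the quasi-likelihood test with robust dispersions, with genotype and sex in each time point's own model. A gene was called at a Benjamini-Hochberg adjusted p under 0.05, adjusted over the whole set of tested genes. Changes over time and their difference between genotypes were fitted on 3- with 6-dpf and on 10- with 14-dpf libraries, and sex on all 30. DESeq2 1.42.0 was an alternative, beside other scalings, filters, models and leaving out each replicate. Errors are SE of the fitted log2 differences or SD of levels. Correlations used log2 CPM with a prior count of 2 and 100000 two-sided permutations within groups. The fitting steps were tested on simulated data.

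Lengths and sequences came from GRCm39, the build of the files, with GENCODE annotation. The members and gene lists were chosen with earlier results of these data known. All 7 members and *Apex1* are named, with up to 4 called genes of the largest difference and a mean of at least 1 CPM per list and time point, *Egr1*, *Atf3*, *Mmp3*, *Mmp9*, *Mmp10* and *Mmp13*, and up to 3 genes most like each member. Some items that these rules pick are not reported here. *Ahsp* had no single identifier in the table and was left out of the erythroid markers.

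The kit and the counting keep strand, which matters here because *Jun*, *Junb*, *Fosl1*, *Fosl2* and *Jund* overlap annotated neighbours.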

Additional observations from a re-analysis of the deposited data

Results flagged for a closer look

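In 35 groups of a member with 4 or more libraries, 3 had a library far from the others of its group by Dixon's test, and chance alone flags about 1 in 20 groups. *Fosb* reached 44.4 CPM in the library labelled P-Apex1KO replicate 1 at 3-dpf, where the others held 1.62 to 8.87. *Jun* reached 56.7 CPM in WT replicate 3 at 10-dpf, where the others held 38.7 to 40.9. *Junb* reached 127 CPM in WT replicate 4 at 6-dpf, where the others held 81.2 to 86.9. Depth, marker levels and handling were not tested as a cause.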

How the results depend on the processing

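Across 1442 member values under alternative settings, 1321 kept their direction and side of the threshold, 29 lost a call, 23 gained one, and 69 that were not called changed sign. No called value reversed. The number of members called between genotypes became 1 at 6-dpf (*Jun*) with library size alone, and 1 at 10-dpf (*Jun*) with DESeq2 or with library size alone. At 14-dpf it was 2 with DESeq2 (*Fosl1* and *Fosl2*), 2 without the sex term (*Fosl2* and *Junb*), 2 with all 30 libraries in one model, 2 with no filter on low counts and 0 with at least 10 counts in every sample, which removes *Fosl1*. Leaving out 1 replicate gave 0 to 1 members at 3-dpf, 0 to 1 at 6-dpf, 0 to 3 at 14-dpf (0 without WT replicate 2, 3 or 4) and 0 to 3 for the early change in P-Apex1KO (0 without P-Apex1KO replicate 2 of 6-dpf). With 1 replicate left out, the number of all genes called ran from 0 to 10 at 3-dpf, 890 to 2359 at 6-dpf, 42 to 1827 at 10-dpf and 1206 to 3773 at 14-dpf. It was 78 at 3-dpf and 2160 at 10-dpf with DESeq2, 3594 at 6-dpf with library size alone, 750 at 10-dpf and 6849 at 14-dpf without the sex term, and 38 at 3-dpf and 6188 at 14-dpf with all 30 libraries in one model. At 14-dpf no model with sex could be fitted without WT replicate 1, the only WT female. The cause of these changes was not tested.

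Groups share replicate numbers, but same-numbered libraries did not deviate together at every time point (correlations from -0.25 to 0.40, not all over 0.1), so the numbers were not taken as pairs. At 3-dpf all were positive, from 0.06 for replicate 2 to 0.40 for replicate 1. With a replicate block in place of sex, the number of members called was 3 at 14-dpf (*Fos*, *Fosl2* and *Junb*), 1 for the early change in P-Apex1KO, 2 for the late change in WT, 1 for the late change in P-Apex1KO and 1 for the difference between 14- and 10-dpf. Under the replicate block *Fosl1* at 14-dpf was 0.70 (adjusted p = 0.519), the early *Junb* change in P-Apex1KO was not called (adjusted p = 0.117), and 677 genes in all were called at 6-dpf and 1 at 3-dpf.

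The following were added after seeing the data. The sex difference was called for 0 members on 3- and 6-dpf libraries, 0 on 10- and 14-dpf, 0 on 3-, 6- and 10-dpf, 0 on WT libraries and 1 without WT replicate 1 of 14-dpf. With group and sex removed, 8 correlations passed. Depth limits *Fosl1* most, with 3 to 41 counts per library at 10- and 14-dpf.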

Other observations

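The level of each member was also set beside the summed level of each marker list, as deviations from the group means over 30 libraries. Of 70 such pairs, 1 passed a permutation test adjusted over the 70. *Fosl2* went down where the erythroid markers went up (Pearson r = -0.59, Spearman rho = -0.69, adjusted permutation p = 0.0154). Similar r values that did not pass were found for *Fos* (-0.65), *Junb* (-0.58) and *Fosb* (-0.56), and no member had a positive r with this list. The share of other genes that would pass was not taken, so the link is not particular to *Fosl2*.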
